A study of Mus musculus with 4 samples.

Results

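The genes described here encode the Nodal and activin signals of mouse embryonic stem cells, their receptors and their secreted antagonists. They were chosen by name: 4 ligand genes (Nodal, Inhba, Inhbb and Gdf3), the co-receptor gene Tdgf1, the receptor genes Acvr1b and Acvr2b, and the antagonist genes Lefty1, Lefty2 and Fst. All 10 were among the 24428 genes of the count tables, and 9 had enough reads to be tested. RNA-seq libraries came from embryonic stem cells of strain 129SvEv at passage 15 to 20, kept untreated in medium with 15% fetal bovine serum and LIF. Every cell carried a wild-type copy of Smarca4, the ATPase of the BAF chromatin remodelling complex, fused to GFP. The second copy carried a V5 tag and was wild-type in 2 libraries (WT) and held the G784E change, which the series title calls dominant-negative, in the other 2 (G784E). The labels do not say whether the libraries of a group came from separate cultures or clones, and the p-values therefore measure a spread among libraries that could be technical only.

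Nodal and the activins are ligands of the TGF-beta family. They bind a type II receptor such as the product of Acvr2b, which activates a type I receptor such as ALK4, the product of Acvr1b, and the signal is passed on by phosphorylated Smad2 and Smad3 with Smad4. Nodal and Gdf3 also need a co-receptor, Cripto, the product of Tdgf1, whereas activins do not. Lefty1 and Lefty2 are transcribed in response to Nodal signalling and block Nodal and Cripto, which closes a negative feedback loop, and follistatin, the product of Fst, binds and neutralises activins. In stem cells the pathway is known for steering exit from pluripotency and the choice of mesendoderm fates.

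Gene counts per library ranged from 6226145 to 10083442, so that 1 read stood for 0.102 to 0.164 CPM (TMM-scaled counts per 1e6 counts of the library, the unit of all levels below). Smarca4 read at 3868 and 3580 CPM in G784E and 2423 and 2553 CPM in WT, with both alleles counted together. Its log2 fold change (G784E over WT) was 0.58 (SE 0.19) and did not pass (edgeR, adjusted p = 0.119), though some alternative settings called it higher. Stem cell identity was checked with 8 markers: none of these was called different, and their summed level was 1983 and 2190 CPM in G784E and 1885 and 2057 CPM in WT. In 4 of the 8 both G784E libraries lay above both WT libraries, and in 1 below, beside 19.4% in each direction over all tested genes. Nanog had the largest log2 fold change of the list, 0.52 (SE 0.20; edgeR, adjusted p = 0.252). Markers of primitive and visceral endoderm moved with the genotype. All 10 were lower in G784E (edgeR, adjusted p under 0.05), beside 1.89% over all tested genes. They summed to 308 and 321 CPM in G784E against 3405 and 3741 CPM in WT. The marker lists were chosen with earlier results of these data known, so this is not an independent check. Of 8 trophectoderm markers 3 were lower (Krt8, Krt18 and Eomes), and Cdx2, Elf5, Gata3, Hand1 and Tfap2c were not called. In 6 of the 8 both G784E libraries lay below both WT libraries, and in 1 (Tfap2c) above. The list summed to 76.1 and 64.6 CPM in G784E against 118 and 123 CPM in WT. Much of that difference was Krt18, at 10.5 and 10.8 CPM in G784E and 39.2 and 42.5 CPM in WT. Feeder fibroblast markers (8 genes, none called) summed to 129 and 95.4 CPM in G784E and 99.96 and 74.8 CPM in WT. Of the 8 markers of primitive streak and mesoderm, Mesp1, Gsc, Msgn1 and Fgf8 did not exceed background in any library. In bulk RNA, fewer cells of a type and less RNA per cell cannot be told apart, and the part of these cell types in the results below was not tested.

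Among the 10 genes, the ligand genes Nodal and Inhbb were higher in G784E cells, the receptor and co-receptor genes Tdgf1, Acvr1b and Acvr2b were not called different, and the antagonist genes Lefty2 and Fst read lower without passing the test. Of the 9 tested genes, 2 were called higher and none lower in edgeR's quasi-likelihood test (Benjamini-Hochberg adjusted p under 0.05 over all genes). Over all 15763 tested genes, 0.672% were called higher and 1.89% lower, 2.56% in all. At an unadjusted p under 0.05, 3 of the 9 were higher (Gdf3 was added) and none was lower, beside 5.14% higher and 6.48% lower over all tested genes. DESeq2 and limma-voom each called 2 higher and none lower. The median log2 fold change (G784E over WT) of the 9 genes was 0.03, beside -0.00158 over all tested genes. In 4 genes (Nodal, Inhbb, Gdf3 and Tdgf1) both G784E libraries lay above both WT libraries, and in 2 (Lefty2 and Fst) below. Over all tested genes, 19.4% were separated in each direction.

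**Figure D1:**
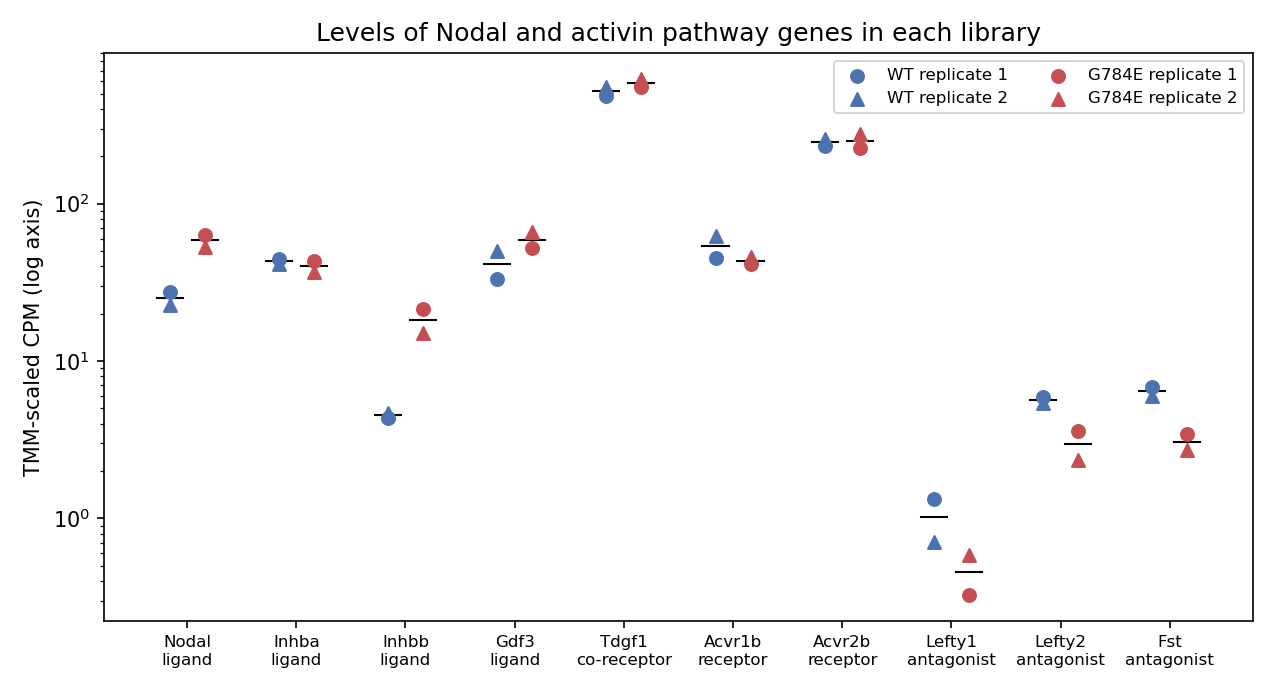
TMM-scaled CPM on a log axis for the 10 genes, by role; blue symbols are WT and red symbols G784E libraries (circle replicate 1, triangle replicate 2), and black bars are group means. Nodal and Inhbb sit higher in both G784E libraries, Lefty2 and Fst lower, and Acvr2b and Inhba overlap.

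Per kilobase of annotated exon, levels spanned a wide range and Cripto led. Tdgf1 stood at 197 ± 19.8 CPM per kilobase in WT (SD, n = 2), followed by Acvr2b at 62.5 ± 4.35. Gdf3 (17.2 ± 4.77), Acvr1b (12.1 ± 2.68) and Nodal (11.95 ± 1.55) came next, and the WT libraries of Acvr1b overlapped those of Gdf3 and of Nodal. Inhba was at 6.74 ± 0.318. The lowest levels per kilobase were those of Lefty2 (2.17 ± 0.152), Fst (1.40 ± 0.135), Inhbb (1.06 ± 0.0520) and Lefty1 (0.578 ± 0.245), whose WT libraries did not overlap from gene to gene. In G784E the order changed in its middle and lower part. Nodal, at 27.9 ± 3.46 CPM per kilobase, stood beside Gdf3 at 24.3 ± 4.03 with overlapping libraries and above Acvr1b at 9.84 ± 0.715, and Inhbb, at 4.27 ± 1.03, stood above Lefty2 at 1.14 ± 0.337.

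Nodal, the ligand gene that gives the pathway its name, rose 2.33-fold. It had 388 and 452 reads in the G784E libraries and 207 and 224 in the WT libraries. Scaled, these were 63.5 and 53.2 CPM in G784E and 27.3 and 22.7 CPM in WT. The groups did not overlap and both libraries of a group lay close together. On the log2 scale G784E exceeded WT by 1.22 (SE 0.23, 95% interval 0.75 to 1.69; edgeR, adjusted p = 0.00209). It was 1.22 between the libraries numbered 1 and 1.23 between those numbered 2. Without WT replicate 2 the change was 1.09 and did not pass (edgeR, adjusted p = 0.0558). Among the 106 genes called higher, Nodal ranked 33 by fold change.

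Inhbb, which encodes the beta B subunit of activin B, rose 4.0-fold. Its reads numbered 130 and 128 in G784E and 33 and 46 in WT, or 21.3 and 15.1 CPM against 4.36 and 4.67 CPM. Both WT libraries were close together and low, and the G784E libraries differed more from each other than the WT libraries did. This gave a log2 fold change of 2.00 (SE 0.35, 95% interval 1.28 to 2.71; edgeR, adjusted p = 0.000931), at 2.29 and 1.69 between libraries of the same number. Inhbb ranked 4 by fold change among the genes called higher. Its call was kept under all 13 alternative settings, with log2 fold changes of 1.75 to 2.25.

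Inhba, which encodes the beta A subunit of activin A, did not follow its paralogue. It stood at 43.2 and 36.6 CPM in G784E and at 44.5 and 41.6 CPM in WT, so the groups overlapped. The log2 fold change was -0.11 (SE 0.22, 95% interval -0.57 to 0.34; edgeR, adjusted p = 0.983), an interval that leaves out a change of the size seen for Inhbb. The number of Inhbb reads per Inhba read, a ratio that does not depend on library size, was 0.0979 and 0.112 in WT and 0.492 and 0.412 in G784E. It was 4.30-fold higher in G784E by the group means. With 2 libraries against 2, the smallest p an exact two-sided permutation test of such a ratio allows is 0.333, so none of the ratios here was tested. Inhbb made up 8.92% and 10.1% of the reads of both activin beta genes in WT, and 33.0% and 29.2% in G784E, so Inhba held most of them in every library.

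Gdf3, which encodes a Cripto-dependent ligand of stem cells, lay higher in G784E without passing the test. Its levels were 52.0 and 65.8 CPM in G784E and 33.4 and 49.7 CPM in WT. The upper WT library came close to the lower G784E library. Its log2 fold change was 0.50 (SE 0.23, 95% interval 0.02 to 0.98; edgeR, adjusted p = 0.392), and it ran from 0.25 without WT replicate 1 to 0.82 without WT replicate 2. The ratio of Nodal to Gdf3 reads overlapped between groups, at 1.22 and 0.809 in G784E and 0.818 and 0.457 in WT.

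The sequence before the start of Nodal, Inhbb and Inhba is shown because these ligand genes differed in their change between the groups. The windows are the 250 bases before the RefSeq start in build GRCm38.p6, a later build than the mm9 of the counts, written 5′ to 3′ on the gene's strand with each CpG dinucleotide in capitals. They lie at chr10:61417722-61417971 (Nodal, plus strand), chr1:119422249-119422498 (Inhbb, minus strand) and chr13:16011601-16011850 (Inhba, plus strand).
Nodal: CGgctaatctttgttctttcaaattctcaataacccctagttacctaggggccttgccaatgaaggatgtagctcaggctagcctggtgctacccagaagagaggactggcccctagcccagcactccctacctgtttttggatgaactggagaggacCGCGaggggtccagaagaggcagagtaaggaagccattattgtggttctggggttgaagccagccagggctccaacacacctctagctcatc
Inhbb: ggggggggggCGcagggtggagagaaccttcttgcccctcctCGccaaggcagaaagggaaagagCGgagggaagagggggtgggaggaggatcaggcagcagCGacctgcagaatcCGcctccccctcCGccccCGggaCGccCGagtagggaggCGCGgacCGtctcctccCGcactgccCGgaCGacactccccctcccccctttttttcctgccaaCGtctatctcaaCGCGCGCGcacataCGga
Inhba: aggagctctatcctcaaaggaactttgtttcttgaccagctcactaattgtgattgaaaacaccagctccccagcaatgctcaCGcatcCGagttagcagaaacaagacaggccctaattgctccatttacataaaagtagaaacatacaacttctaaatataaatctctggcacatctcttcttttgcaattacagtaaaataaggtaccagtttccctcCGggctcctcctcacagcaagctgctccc
The Inhbb window held 21 CpG and was 68% G and C, whereas the Nodal and Inhba windows held 3 CpG each at 53.2% and 43.2% G and C. Over all 32807 windows of the table the median was 6 CpG. Nodal and Inhbb, both called higher, thus differed in CpG count, and Nodal and Inhba, which was not called, had the same count. Whether these sequences bear on the changes was not tested. RefSeq windows were matched for 6 of the 10 genes (also Tdgf1, Acvr1b and Acvr2b). None of the 3 ligand windows contained the Smad box CAGAC or the FoxH1 motif TGTNNATT on either strand, which occur in 42.2% and 10.9% of all windows. The Tdgf1 window contained 1 Smad box and 2 FoxH1 motifs, none overlapping, and the Acvr2b window 1 Smad box. These matches describe letters in a short window, not binding.

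The co-receptor and receptor genes showed no called change. Tdgf1 (Cripto) stood at 554 and 621 CPM in G784E and at 480 and 553 CPM in WT. Its lowest G784E library lay just above its highest WT library. A log2 fold change of 0.19 was estimated (SE 0.20, 95% interval -0.22 to 0.59; edgeR, adjusted p = 0.883). Part of the Tdgf1 transcript is shared with a processed pseudogene: 12.5% of its 50-base stretches also occur in Tdgf1-ps1, so reads there could have been dropped or split. Reads of Nodal per read of Tdgf1 rose with Nodal, from 0.0570 and 0.0411 in WT to 0.115 and 0.0857 in G784E.

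Acvr2b, a type II receptor gene and the second most abundant of the set, was at 224 and 276 CPM in G784E and 233 and 257 CPM in WT. The WT values lay between the G784E values. Its log2 fold change was 0.03 (SE 0.20, 95% interval -0.39 to 0.44; edgeR, adjusted p = 1.00). Acvr1b, the type I receptor gene, was at 41.2 and 45.7 CPM in G784E and 45.2 and 61.9 CPM in WT, with overlapping groups. Its log2 fold change was -0.30 (SE 0.22, 95% interval -0.76 to 0.16; edgeR, adjusted p = 0.735). For Tdgf1, Acvr2b and Acvr1b the interval leaves out a log2 change of 1 in either direction, and smaller differences could not be resolved.

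**Figure D2:**
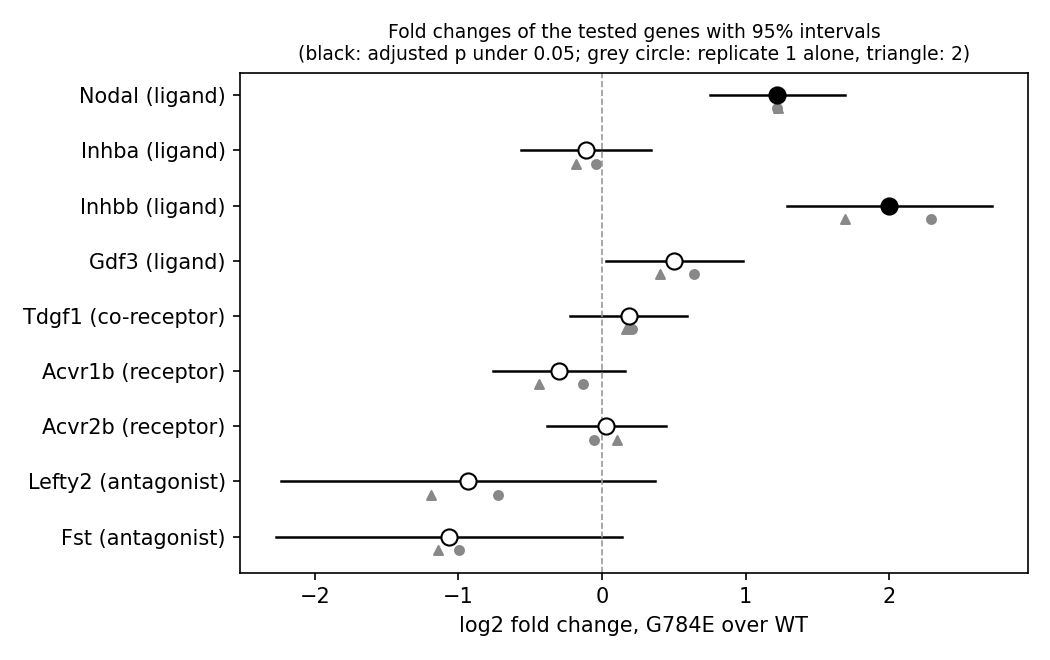
log2 fold change of G784E over WT for the 9 tested genes on the horizontal axis, with 95% intervals from the edgeR fit; filled points passed the test, and grey symbols give the fold change within the libraries numbered 1 (circle) and 2 (triangle). Nodal (1.22) and Inhbb (2.00) stand apart from 0, and the intervals of Lefty2 and Fst are wide and include 0.

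The antagonist genes were scarce in these cells, and neither Lefty2 nor Fst was called different. Lefty2 had 22 and 20 reads in G784E and 45 and 53 in WT, which is 3.60 and 2.36 CPM against 5.94 and 5.38 CPM. Both G784E libraries were below both WT libraries, as in 19.4% of all tested genes. The log2 fold change was -0.93 (SE 0.63, 95% interval -2.23 to 0.37), and it did not pass (edgeR, adjusted p = 0.691). Fst gave 21 and 23 reads in G784E and 52 and 59 in WT, or 3.44 and 2.71 CPM against 6.87 and 5.99 CPM, again without overlap. Its log2 fold change of -1.07 (SE 0.58, 95% interval -2.27 to 0.14) did not pass either (edgeR, adjusted p = 0.527). Each interval holds both no change and a fall of over 4-fold.

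Lefty1 was near background and was not tested. It had 2 and 5 reads in G784E and 10 and 7 in WT. Background was read from olfactory receptor genes, which are expressed mainly in the nose. They had a 95th percentile of 13 and 8.8 reads in the G784E libraries and 14 and 7 in the WT libraries, so Lefty1 exceeded it in none. The other 9 genes exceeded it in all 4 libraries. With no filter on low counts, the log2 fold change of Lefty1 was -1.12 (SE 1.55; edgeR, adjusted p = 0.998).

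Lefty1 and Lefty2 are close copies, and their shared sequence bears on how far reads can be told apart. Their coding sequences in the GENCODE M21 annotation are 1107 bases each and 91.9% identical, and the longest stretch without a difference is 140 bases. Of the 50-base stretches of each annotated transcript, 17.9% of Lefty1 and 11.6% of Lefty2 also occur in another gene, for Lefty1 always Lefty2. The shares were 23% and 15.6% for stretches of 36 bases and 11.2% and 7.21% for 75 bases. The read length is not given in the sources used here. Reads from the shared stretches were open to loss as not uniquely placed, and most of either transcript was not shared. Nodal, Inhbb, Acvr1b and Acvr2b shared no stretch of these lengths with another annotated gene. Fst overlaps the antisense gene Gm47040 over 2.51% of its exon bases, and whether reads there were assigned by strand is not given in the sources used here. Summed as 1 feature, Lefty1 and Lefty2 had 24 and 25 reads in G784E and 55 and 60 in WT. The summed log2 fold change was -0.96 (SE 0.55, 95% interval -2.11 to 0.18; edgeR, adjusted p = 0.569), an alternative chosen after seeing the data.

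Each antagonist was then set against its ligand within a library, which removes library size and scaling. In WT there were 0.266 and 0.268 Lefty reads (Lefty1 and Lefty2 together) per Nodal read. In G784E there were 0.0619 and 0.0553. The 95% exact (Clopper-Pearson) intervals, which cover counting error only, were 0.194 to 0.359 and 0.198 to 0.358 in WT. They were 0.0392 to 0.0934 and 0.0354 to 0.0827 in G784E, below the WT intervals. By group means the ratio was 4.55-fold higher in WT, at 0.267 ± 0.00152 against 0.0586 ± 0.00463 (SD, n = 2). Lefty2 alone gave a similar picture, with 0.217 and 0.237 in WT and 0.0567 and 0.0442 in G784E. Nodal was higher, and Lefty2 lower, in each G784E library than in either WT library. Only Nodal was called different, and its rise alone would lower these ratios with Lefty unchanged.

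Follistatin and activin B showed the same layout. There were 1.58 and 1.28 Fst reads per Inhbb read in WT, and 0.162 and 0.180 in G784E. The ratio was 8.38-fold higher in WT by the group means (1.43 ± 0.207 against 0.171 ± 0.0128, SD, n = 2). Against the reads of both activin beta genes together, Fst stood at 0.141 and 0.129 in WT and 0.0533 and 0.0524 in G784E, 2.55-fold higher in WT. Each of these ratios holds a gene that rose, so the separation comes in part from Nodal and Inhbb themselves. Whether fewer endoderm cells, whose 10 markers fell in the same libraries, had a part in the lower Lefty2 and Fst reads was not tested.

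**Figure D3:**
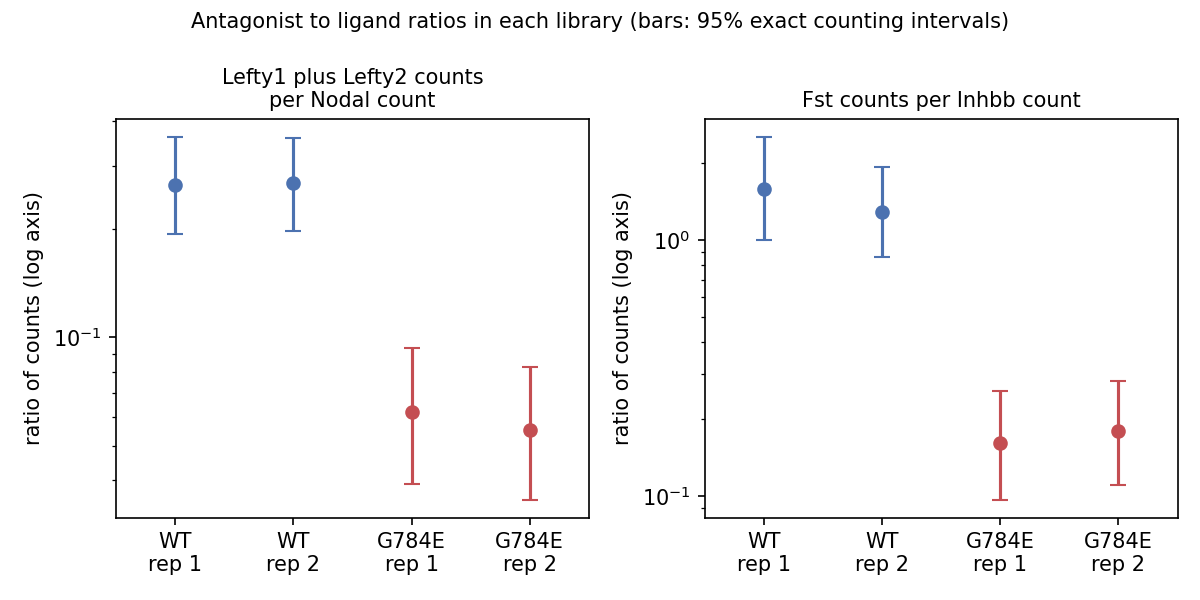
Ratio of counts on log axes in each library: Lefty1 plus Lefty2 per Nodal read (left) and Fst per Inhbb read (right), with 95% exact counting intervals. In each panel both G784E libraries (red) sit below both WT libraries (blue), at 0.0553 to 0.0619 against 0.266 to 0.268 on the left.

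In 5 further lists of the wider pathway, 48 of 59 genes were tested and 4 were called (1 higher and 3 lower), or 8.33% beside the 2.56% over all genes. The lists were chosen with earlier results of these data known, so these shares are not an independent comparison. A list of 9 further genes of the ligand family held the TGF-beta genes, the inhibin subunit gene Inha, Inhbc, Inhbe, Gdf1, Gdf11 and Mstn. Of these 6 were tested, and none was called by edgeR, DESeq2 or limma-voom or reached an unadjusted p under 0.05 (edgeR). Their log2 fold changes ran from -1.31 to 1.12, with a median of -0.18. Gdf1 had no read in any library. Of 7 further receptor and co-receptor genes 6 were tested and 1 was lower. This was Tgfbr3, which encodes betaglycan, a co-receptor for TGF-beta ligands and inhibin. It stood at 6.38 and 6.36 CPM in G784E and 21.7 and 22.3 CPM in WT, a 3.45-fold fall (-1.79 on the log2 scale, SE 0.30; edgeR, adjusted p = 0.000773). Acvr2a, the other activin type II receptor gene, was at 46.8 and 42.4 CPM in G784E and 38.4 and 53.8 CPM in WT, with a log2 fold change of -0.05 (SE 0.23). The co-receptor gene Cfc1, a relative of Tdgf1, had 0 to 6 reads per library and was not tested.

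Among 13 secreted and membrane modulators and convertases, 11 were tested, 1 was higher and none lower, with a median log2 fold change of 0.20. Bambi, a pseudoreceptor gene that dampens TGF-beta family signals, was at 10.8 and 16.3 CPM in G784E and 4.62 and 5.08 CPM in WT, 2.79-fold higher (1.48 on the log2 scale, SE 0.38; edgeR, adjusted p = 0.0325). DESeq2 did not call it (1.49, adjusted p = 0.0848), nor did edgeR with upper-quartile scaling (1.47, adjusted p = 0.063) or without Rn45s (1.45, adjusted p = 0.0517). Leaving out G784E replicate 2 (1.17), WT replicate 1 (1.42) or WT replicate 2 (1.55) also ended the call, with edgeR adjusted p of 0.25, 0.238 and 0.169. Cer1, which encodes the Nodal antagonist Cerberus, had 3 to 10 reads per library and was not tested. The convertase genes Furin and Pcsk6, whose products cleave the Nodal precursor, had log2 fold changes of -0.30 (SE 0.29) and -0.13 (SE 0.23).

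All 15 genes for Smad proteins and their regulators were tested and none was called by edgeR, DESeq2 or limma-voom. At an unadjusted p under 0.05, 1 was higher and 2 were lower, beside 11.6% in either direction over all tested genes. Smad2 stood at 116 and 134 CPM in G784E and at 170 and 183 CPM in WT, without overlap (log2 fold change -0.49, SE 0.20; edgeR, adjusted p = 0.277). Smad3 had a log2 fold change of 0.33 (SE 0.25) and Smad4 of -0.01 (SE 0.21). Foxh1, which encodes the DNA-binding partner of Smad2 at Lefty and Nodal enhancers, was at 6.71 and 4.71 CPM in G784E and 5.15 and 9.04 CPM in WT, with overlapping groups (-0.33, SE 0.48).

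Of 15 listed transcriptional targets of the pathway 10 were tested. None was called higher and 2 were lower, beside 0.672% higher and 1.89% lower over all tested genes. At the first share, 10 genes would mostly hold no higher call. At an unadjusted p under 0.05 (edgeR), none was higher and 4 were lower, beside 5.14% and 6.48%. In 6 genes both G784E libraries lay below both WT libraries, beside 19.4% over all tested genes. The median log2 fold change of the list was -0.56. Eomes, a T-box gene of mesendoderm and trophoblast, was at 3.60 and 6.24 CPM in G784E and 16.1 and 16.9 CPM in WT, 3.30-fold lower (-1.72 on the log2 scale, SE 0.36; edgeR, adjusted p = 0.00642). Otx2, a homeobox gene of epiblast and visceral endoderm, was at 58.7 and 55.8 CPM in G784E and 95.5 and 117 CPM in WT, 1.86-fold lower (-0.90, SE 0.21; edgeR, adjusted p = 0.0152). Both calls were lost without WT replicate 2, at -1.69 (edgeR, adjusted p = 0.0982) and -0.74 (adjusted p = 0.267). Smad7, an inhibitory Smad gene induced by the pathway in many cells, stood at 94.1 and 78.0 CPM in G784E and 81.6 and 92.7 CPM in WT (-0.02, SE 0.21). Several genes of this list, such as Foxa2 and Otx2, are also expressed in endoderm, whose markers were lower in the same libraries, and Eomes is also on the trophectoderm list.

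**Figure D4:**
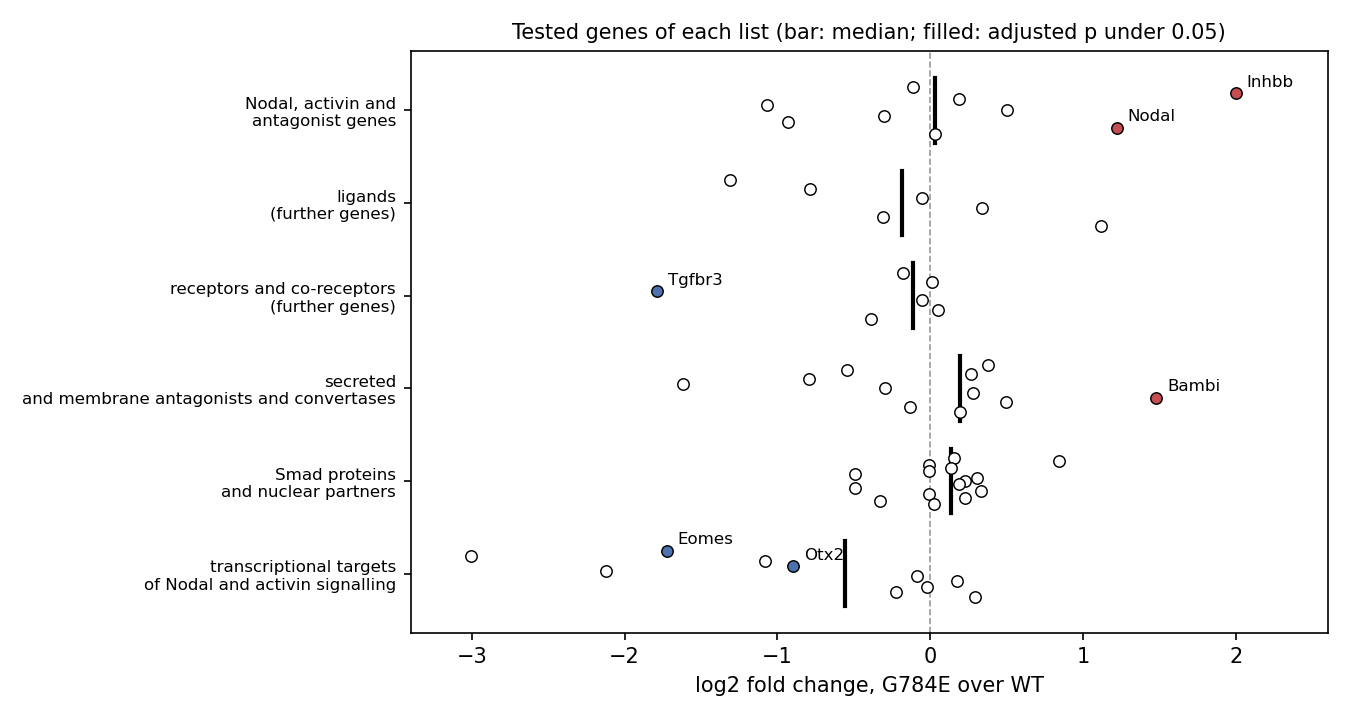
log2 fold change of G784E over WT for every tested gene of the Nodal and activin set and of 5 further pathway lists; the black bar is the list median, and filled points passed the edgeR test. Inhbb, Nodal and Bambi are the called increases, Tgfbr3, Eomes and Otx2 the called decreases.

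**Figure D5:**
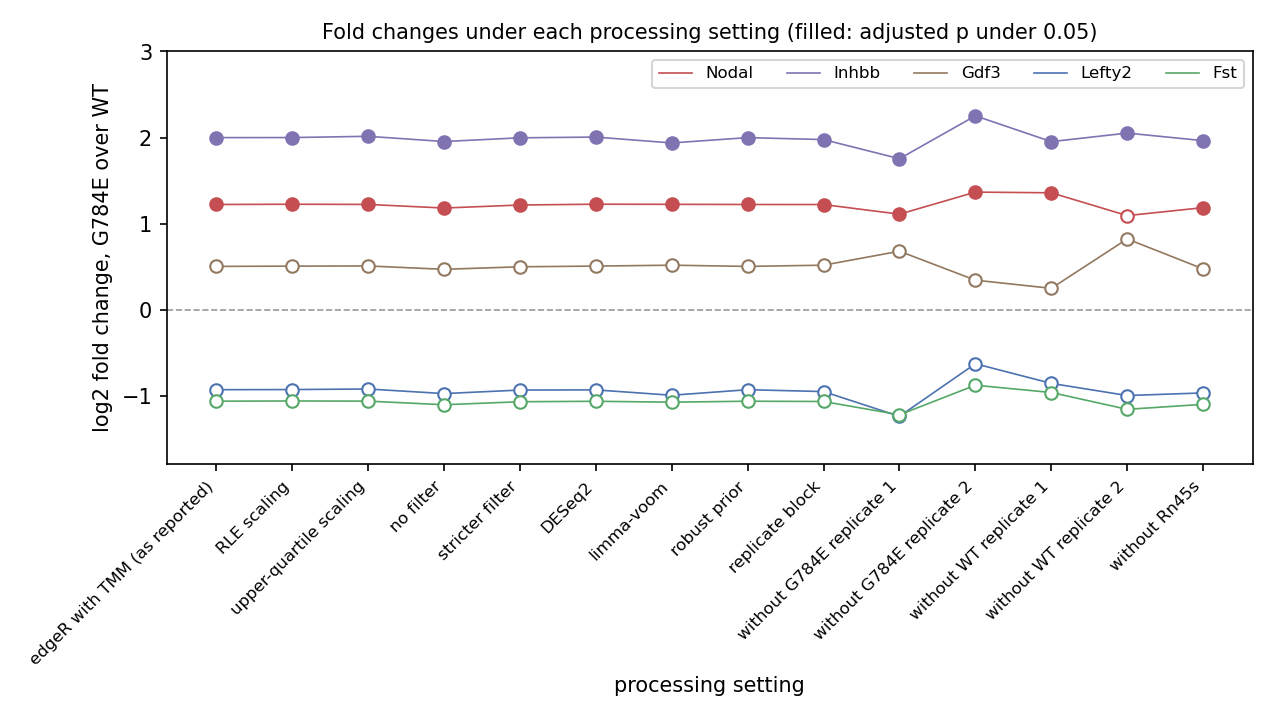
log2 fold change of 5 genes (vertical axis) under each processing setting (horizontal axis); filled points have an adjusted p under 0.05. Inhbb is called under every setting shown, Nodal under all but the one without WT replicate 2, and Gdf3, Lefty2 and Fst under none.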

How the data were processed

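The 4 libraries were grouped by their titles. The deposited tables give raw read counts per gene, 1 table per library. The submitters' processing notes name build mm9 and the tools Bowtie2 2.1.0, CASAVA 1.8.2, DESeq2 and HTSeq. Annotation, counting mode and strand setting were not given in the sources used here. Summary rows, left out of library sizes and tests, held 83.3% to 88.7% of each table, and reads not placed uniquely 55.4% to 61.8%.

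Counts were tested with edgeR 4.0.16 (quasi-likelihood, TMM scaling) in R 4.3.3. filterByExpr (minimum count 10, minimum total 15) kept 15763 genes, and group was the only term of the model, leaving 2 residual degrees of freedom. p-values were adjusted by Benjamini-Hochberg over all tested genes, and SE is the log2 fold change divided by the square root of F. Variances are moderated across genes, which brought the degrees of freedom of the tests and intervals to 23.3 for each gene. The p-values and intervals therefore rest mostly on spread shared across genes. Alternatives were RLE and upper-quartile scaling, 2 other filters, DESeq2 1.42.0, limma-voom (limma 3.58.1), a replicate block, a robust prior, and leaving out each library in turn or the ribosomal RNA gene Rn45s. The procedures were also run on simulated counts. These had less spread between libraries than the data and no replicate effect, so they do not show accuracy at the noise of the data. Exon lengths, shared stretches and overlaps came from GENCODE M21 (GRCm38), matched by symbol, and promoters from RefSeq.

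The genes and lists were chosen with earlier results of these data known. Named were the 10 genes, Smarca4, up to 2 higher and 2 lower called genes per list, and Foxh1, Smad2, Smad3, Smad4, Smad7, Cer1, Acvr2a and Bambi; others were named after their values were seen.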

Additional observations from a re-analysis of the deposited data

How the results depend on the processing

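The direction and call of Inhbb, Gdf3, Tdgf1, Acvr1b, Lefty2 and Fst were the same under every alternative run. Nodal lost its call without WT replicate 2 (log2 fold change 1.09, edgeR, adjusted p = 0.0558), with 1.09 to 1.37 over the libraries left out. Near-zero changes that turned sign were Acvr2b (-0.00388 with no filter, -0.00236 without Rn45s, and -0.11 to 0.19 with a library left out) and Inhba (0.026 without G784E replicate 2; -0.21 to 0.026 over the libraries left out). With a library left out, Smad4 ran from -0.18 to 0.17, Smad7 from -0.14 to 0.13, Acvr2a from -0.27 to 0.21 and Foxh1 from -0.67 to 0.14; the cause was not tested. Over all genes, the numbers called ran from 156 to 532 (lower) and 29 to 307 (higher) with a library left out, and limma-voom called 186 higher. The replicate block called 658 lower and 546 higher. The labels do not say that equal numbers pair libraries, but the differences between replicates 1 and 2 correlated across genes between the groups (r = 0.49). Summary rows held 88.3% (G784E) and 88.7% (WT) of the replicate 1 tables. In the replicate 2 tables they held 83.7% (G784E) and 83.3% (WT). The reported fit, with group as its only term, does not model such a difference. Under the block no call among the 10 genes changed, and in the lists the calls came to 4 lower targets (from 2), 1 lower Smad-list gene (Smad2, -0.50, adjusted p = 0.00909) and 1 lower modulator (both from 0). The modulator list's higher count was 0 with upper-quartile scaling, DESeq2 and no Rn45s, and 0 to 1 with a library left out; its lower count was 0 to 1, and that of the targets 0 to 3. Smarca4, not called in the reported fit, was called higher with upper-quartile scaling (edgeR, adjusted p = 0.0108) and the replicate block (edgeR, adjusted p = 1.6e-05). DESeq2 (adjusted p = 0.00808) and limma-voom (adjusted p = 0.0300) also called it higher. Lefty1 reads alone per Nodal read were 0.00515 and 0.0111 in G784E and 0.0483 and 0.0312 in WT. Vomeronasal receptor genes as background also left 9 genes above it in all 4 libraries. Lefty1 exceeded their 95th percentile in both WT libraries (10 and 7 reads against 9.2 and 4.2). It did not in the G784E libraries (2 and 5 reads against 8 and 6.2), so its standing in WT depends on the background chosen. At 20 to 59 reads per library, Lefty2 and Fst carry SEs of 0.58 to 0.63, which limits what can be seen.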
